A study of Arabidopsis thaliana with 14 samples.

Results

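The nuclear photosystem and antenna genes of Arabidopsis thaliana are described here through the cold and high-light responses of cold-primed and control plants. They were taken from the 27861 genes of an RNA-seq table by gene name. Members were all genes with a nuclear AGI code whose name holds the word photosystem, light harvesting or light-harvesting, or chlorophyll A together with binding. The early light-induced proteins ELIP1 and ELIP2, the photoprotective PsbS, the light-harvesting-like LIL3:1 and the one-helix proteins OHP1 and OHP2 were left out by name, 4 of these 6 having matched the words. This gave 64 genes. The rule reads names only, so it also took AT1G69680 and AT5G27390, whose names mention a Mog1/PsbP fold beside a putative ran guanine nucleotide release factor and a putative sugar isomerase. It did not ask whether a protein sits in a photosystem.

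All plants were of the wild-type accession Col-0, raised in soil for 28 d at 20 °C under a photon flux of 100 to 110 µmol m-2 s-1 with 10 h of light and 14 h of dark. Primed plants (P) spent 24 h at 4 °C, starting 2.5 h after the lights came on, and were then kept at 20 °C for another 5 d, the lag phase, next to control plants (C) that were never primed. Both groups were then triggered by cold at 4 °C (suffix C) or by 800 µmol m-2 s-1 of high light at 20 °C (suffix L) for 30, 60 or 120 min, or were harvested untriggered (P0, C0), so that P120L is the library of primed plants after 120 min of high light. Whole vegetative rosettes of at least 5 plants were pooled for each library. Each of the 14 conditions is 1 library without a replicate, so no ratio below carries an error or a p-value, and the variation between pools of plants is unknown. Following the study's own limit, a transcript is said to have risen or fallen only where its ratio to the other library passed 1.5-fold (0.58 on the log2 scale), and genes entered the comparisons with at least 0.5 FPKM in both P0 and C0 and a mean of at least 2 FPKM. FPKM values count sequenced fragments after scaling by library size and transcript length, so that levels of different genes can be set side by side. Of the 64 members, 62 passed, among 15001 genes in all. The other two were AT5G28450, a chlorophyll-binding family gene with 0 to 0.45 FPKM, and AT4G37230, of the PsbO family, with 0 to 0.39 FPKM.

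Photosystem II withdraws electrons from water at a lumenal manganese cluster that is shielded by the PsbO, PsbP and PsbQ proteins, and photosystem I passes electrons to ferredoxin at a stromal ridge of PsaC, PsaD and PsaE. The chlorophyll-binding proteins Lhcb and Lhca form the antennae of photosystem II and photosystem I. Lhcb1, Lhcb2 and Lhcb3 build the trimers of the major antenna, whereas Lhcb4, Lhcb5 and Lhcb6 (CP29, CP26 and CP24) are single proteins between the trimers and the core. In Arabidopsis the reaction-centre proteins are encoded in the plastid genome, whereas the antenna and most peripheral subunits are encoded in the nucleus, often by several near-identical genes. Plastid-encoded photosystem genes were not analysed here.

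Sister genes of single families differed in the results, and the upstream sequences of 3 such pairs of abundant genes are shown as examples. PSBP-2 with PSBP-1 and AT1G51400 with PSBTN, which differed as well, are not shown. Each is the 250 bases before the annotated gene start in the RefSeq annotation of TAIR10.1, read 5′ to 3′ on the strand of the gene. Capitals mark any match, on either strand, to the G-box CACGTG, the I-box GATAAG, the binding site AAAAATCT or AACAATCT of the clock factor CCA1, or the evening element AAAATATCT. None of these 4 motifs overlapped another in the sequences shown. The first gene of each pair fell after 120 min of high light and the other did not. The positions are chr3:2717307-2717556 (plus strand) for LHCB4.2, chr5:208616-208865 (plus strand) for LHCB4.1, chr2:14524357-14524606 (plus strand) for LHCB1.4, chr1:10477635-10477884 (plus strand) for LHCB1.3, chr1:754263-754512 (minus strand) for PSAD-2 and chr4:1230165-1230414 (minus strand) for PSAD-1.
LHCB4.2: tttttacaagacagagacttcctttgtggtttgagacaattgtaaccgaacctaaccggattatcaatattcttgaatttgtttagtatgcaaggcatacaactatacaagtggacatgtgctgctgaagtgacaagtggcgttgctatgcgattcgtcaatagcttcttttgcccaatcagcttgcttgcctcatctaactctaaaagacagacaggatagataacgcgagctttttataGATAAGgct
LHCB4.1: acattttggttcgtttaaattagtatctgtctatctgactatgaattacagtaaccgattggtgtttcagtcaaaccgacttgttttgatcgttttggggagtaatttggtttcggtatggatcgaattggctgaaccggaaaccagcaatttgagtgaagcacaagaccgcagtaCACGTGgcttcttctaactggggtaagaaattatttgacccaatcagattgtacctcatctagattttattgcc
LHCB1.4: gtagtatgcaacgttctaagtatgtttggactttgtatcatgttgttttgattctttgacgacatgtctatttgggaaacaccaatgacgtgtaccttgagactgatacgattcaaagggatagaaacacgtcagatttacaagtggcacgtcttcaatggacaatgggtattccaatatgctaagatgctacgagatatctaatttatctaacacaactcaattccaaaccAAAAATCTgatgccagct
LHCB1.3: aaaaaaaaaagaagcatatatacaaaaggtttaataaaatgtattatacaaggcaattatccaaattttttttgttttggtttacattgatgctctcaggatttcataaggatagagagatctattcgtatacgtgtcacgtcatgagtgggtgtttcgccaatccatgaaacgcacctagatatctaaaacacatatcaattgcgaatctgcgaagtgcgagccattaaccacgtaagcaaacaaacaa
PSAD-2: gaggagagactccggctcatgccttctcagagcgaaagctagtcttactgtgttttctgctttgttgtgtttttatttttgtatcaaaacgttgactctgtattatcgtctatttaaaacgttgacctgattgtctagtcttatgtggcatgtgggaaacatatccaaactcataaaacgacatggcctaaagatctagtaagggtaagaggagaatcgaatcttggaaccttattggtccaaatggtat
PSAD-1: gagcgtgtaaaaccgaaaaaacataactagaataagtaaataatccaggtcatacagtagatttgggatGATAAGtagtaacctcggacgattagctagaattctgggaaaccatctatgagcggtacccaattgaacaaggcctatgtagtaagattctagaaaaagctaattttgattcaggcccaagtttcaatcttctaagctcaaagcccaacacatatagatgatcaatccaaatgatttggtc

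The pair of CP29 genes held different motifs, with an I-box 9 bases before the start of LHCB4.2 and a G-box 74 bases before that of LHCB4.1. LHCB1.4 held a CCA1 site 18 bases before its start and LHCB1.3 none of the motifs. PSAD-2 had none, and PSAD-1 an I-box 181 bases upstream. Over the 63 members with a full window (AT3G63540 lies too near a chromosome end), 14 held a G-box (22.2%), against 6.49% of 27443 protein-coding genes. An I-box occurred in 14 members (22.2%), against 12.3% of all genes. CCA1 sites occurred in 7 members (11.1%), against 8.38% of all genes, and the evening element in 1 (1.59%), against 2.36%. Among the 11 members that fell in control plants after 120 min of high light, 3 held a G-box and 4 an I-box, against 11 and 9 of the 50 measured members with a window that did not fall. Such matches describe the letters of the window and show no binding.

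The 62 measured members were among the most abundant transcripts of the rosette. Their mean over the 14 libraries was 3.40 to 19612 FPKM with a median of 1731 FPKM, 39 averaged at least 1000 FPKM, 14 averaged less than 100 FPKM, and 29 were among the 50 genes with the highest mean in the table. At the top stood LHCB1.3, a major antenna gene at 10477885 to 10479114 of chromosome 1, with 16787 to 21500 FPKM. Next came its relative LHCB1.5 (chromosome 2, 14522524 to 14523568) with 6728 to 10384 FPKM, followed by PSBR (chromosome 1, 29735952 to 29737009), which links PsbP to the photosystem II core, with 5496 to 7055 FPKM. Most members varied little, since the highest library exceeded the lowest by a median of 1.37-fold. A ratio of at least 1.5 between the highest and the lowest library was seen in 20 members and of at least 2 in 7, the widest being 3.90 in PSBP-2.

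Taken as a sum, the members made up 21.2% of all FPKM in P0 and 19.6% in C0. In the cold, the share was 21.2, 20.7 and 20.9% after 30, 60 and 120 min in primed plants, and 21.5, 19.8 and 20.2% in control plants. In high light, it was 20.2, 19.3 and 17.3% in primed plants and 20.2, 17.3 and 16.3% in control plants, so that both groups ended below every cold and untriggered library. The Lhcb genes alone accounted for 7.65% in P120L, against 9.88% in P0, and for 7.06% in C120L, against 9.03% in C0. As whole rosettes were pooled, fewer cells of a type, less RNA per cell and a rise of other transcripts cannot be told apart in such shares.

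**Figure D1:**
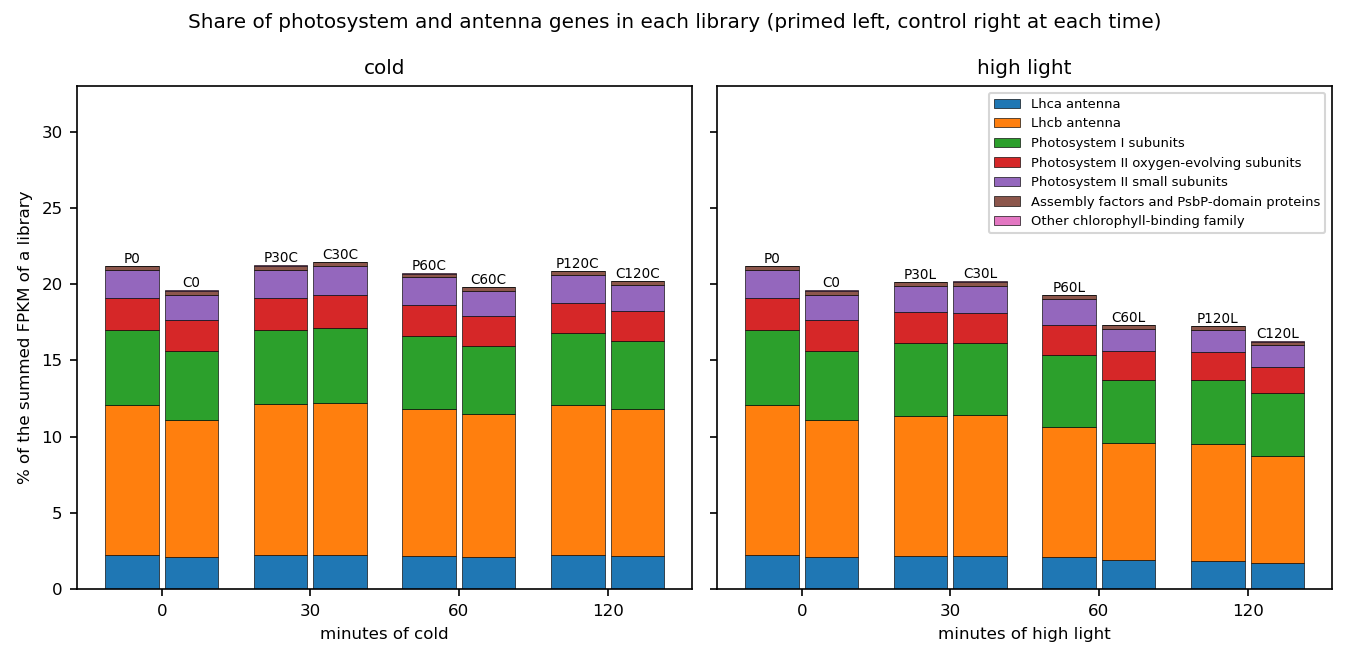
Share of the photosystem and antenna genes in the summed FPKM of each library (y axis, %), by gene class, against minutes of cold (left) or high light (right), with the primed bar left of the control bar at each time. The bars of P120L and C120L end at 17.3% and 16.3%, below those of P0 and C0 at 21.2% and 19.6%.

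The libraries compare as follows over the whole table. FPKM summed to 700526 to 744648 per library, and the depth relative to C0, read from the steps between low values, was 0.939 to 1.46. The labelled tissue is leaf. Of the marker genes, 3 of leaf mesophyll summed to 26969 to 35020 FPKM, whereas the 6 of roots stayed under 1 FPKM in every library and the 4 of flowers summed to 1.07 to 2.88 FPKM. The 5 guard cell markers summed to 62.4 to 108 FPKM in high light, 92.3 to 108 FPKM in cold and 88.9 to 106 FPKM untriggered, while single markers moved in opposite directions in high light. KAT1 was at 1.54 and GC1 at -1.21 in P120L/P0, and KAT1 at 1.38 and GC1 at -1.33 in C120L/C0 (log2). The 4 markers of senescing leaves summed to 16.3 to 40.8 FPKM in high light, 16.2 to 49.3 FPKM in cold and 22.2 FPKM untriggered. The part of guard cell and senescence signals in the results was not tested.

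In the cold, none of the 62 members rose at any time and 1 fell, in primed as in control plants. The median log2 ratio of the members to P0 was 0.02, -0.02 and -0.01 after 30, 60 and 120 min in primed plants, and that to C0 was 0.14, -0.01 and 0.01 in control plants, against medians of 0.00, 0.01 and -0.02 in P and -0.12, -0.06 and -0.09 in C over all 15001 genes. The counts of members past 1.5-fold were 0, 1 and 1 in primed plants, where 7.82, 11.8 and 18.5% of all genes passed it in either direction. They were also 0, 1 and 1 in control plants, where 9.43, 10.8 and 16.9% of all genes did. The gene that fell was PSBP-2 in each case, which is 1.61% of the 62. As all genes were not matched to the members in level, no difference in frequency is read from these counts. All ratios of control plants share C0 and all ratios of primed plants share P0, and they also hold the change in the time of day, which cannot be told apart from the trigger. At 30 min, 51 of 62 members lay above C0 in control plants, with 30.6% of all genes above it, and 34 of 62 lay above P0 in primed plants, with 49.1% of all genes.

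All 15 Lhcb genes lay above C0 in C30C, with a median of 0.20 and a range of 0.09 to 0.40, and so did the 5 small photosystem II subunits, also with a median of 0.20. In P30C, 12 of the 15 were above P0, with a median of 0.04. The uppermost value in C30C/C0, 0.40, was that of LHCB4.3, a weakly expressed CP29 gene, with 95.3 FPKM in C30C and 72.1 in C0. In P30C/P0 the same gene had the lowest value of the 15, -0.16, with 85.0 FPKM in P30C and 94.7 in P0. The value of C0 also enters every other ratio of control plants and P0/C0.

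PSBP-2 (chromosome 2, 13118937 to 13120199), a short relative of the oxygen-evolving subunit PsbP, fell under both triggers. In the cold it was at 12.6, 9.28, 6.68 and 5.22 FPKM after 0, 30, 60 and 120 min in primed plants, and at 11.1, 8.52, 6.00 and 5.06 FPKM in control plants. In high light it was at 5.34, 4.70 and 3.84 FPKM after 30, 60 and 120 min in primed plants, and at 5.32, 5.26 and 3.24 FPKM in control plants. Every triggered library was thus below both start libraries, and the 120 min ratios were -1.27 in cold and -1.72 in high light in primed plants and -1.14 in cold and -1.78 in high light in control plants (log2). Its level was low beside that of PSBP-1 (chromosome 1, 2047634 to 2049439), the gene of the main PsbP protein, which ranged over 3300 to 4149 FPKM. PSBP-1 changed by -0.13 in P120L/P0 and by -0.08 in C120L/C0.

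In high light, part of the members fell by 120 min and most stayed within the limit. After 30 min, 1 member had fallen (PSBP-2) and none had risen in either group, where 7.16% of all genes fell and 8.08% rose in P30L/P0 and 6.91% fell and 3.99% rose in C30L/C0. After 60 min, 2 members had fallen and 1 had risen in P60L/P0, where 10.4% of all genes fell and 10.8% rose, and 3 had fallen and 1 had risen in C60L/C0, where 10.6% fell and 10.1% rose. After 120 min, 9 of 62 members had fallen and 1 had risen in P120L/P0, where 10.9% of all genes fell and 15.0% rose. In C120L/C0 the counts were 11 and 1, where 17.0% of all genes fell and 13.3% rose. The 9 and 11 members that fell by 120 min are 14.5% and 17.7% of the 62, and 1 member is 1.61%. With so few members past the limit, and with no test, no difference in frequency from all genes is read from these counts. Under median-ratio scaling the falls in C60L/C0 numbered 1, since LHCB4.2 (-0.56) and AT1G51400 (-0.56) no longer passed the limit, and 9.55% of all genes fell. At 120 min that scaling gave 13 fallen members in P120L/P0 (21.0% of the 62), where 12.2% of all genes fell. In C120L/C0 it gave 10 (16.1%), where 14.7% of all genes fell. The median over the members was -0.06, -0.13 and -0.28 in primed plants after 30, 60 and 120 min and 0.05, -0.20 and -0.23 in control plants, against -0.02, -0.03 and 0.06 in P and -0.07, -0.04 and -0.07 in C over all genes. When libraries were scaled by the 8 reference genes, the members that fell at 1 or more times in high light numbered 22 in primed plants (35.5% of the 62) and 15 in control plants (24.2%), and none rose. Of all genes, 25.2% in primed and 27.2% in control plants fell at 1 or more times under that scaling, against 15.96% and 21.6% of all genes without it. After 120 min, 56 of 62 members lay below P0 and 52 of 62 below C0, with 55.2% and 44.2% of all genes above those starts.

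**Figure D2:**
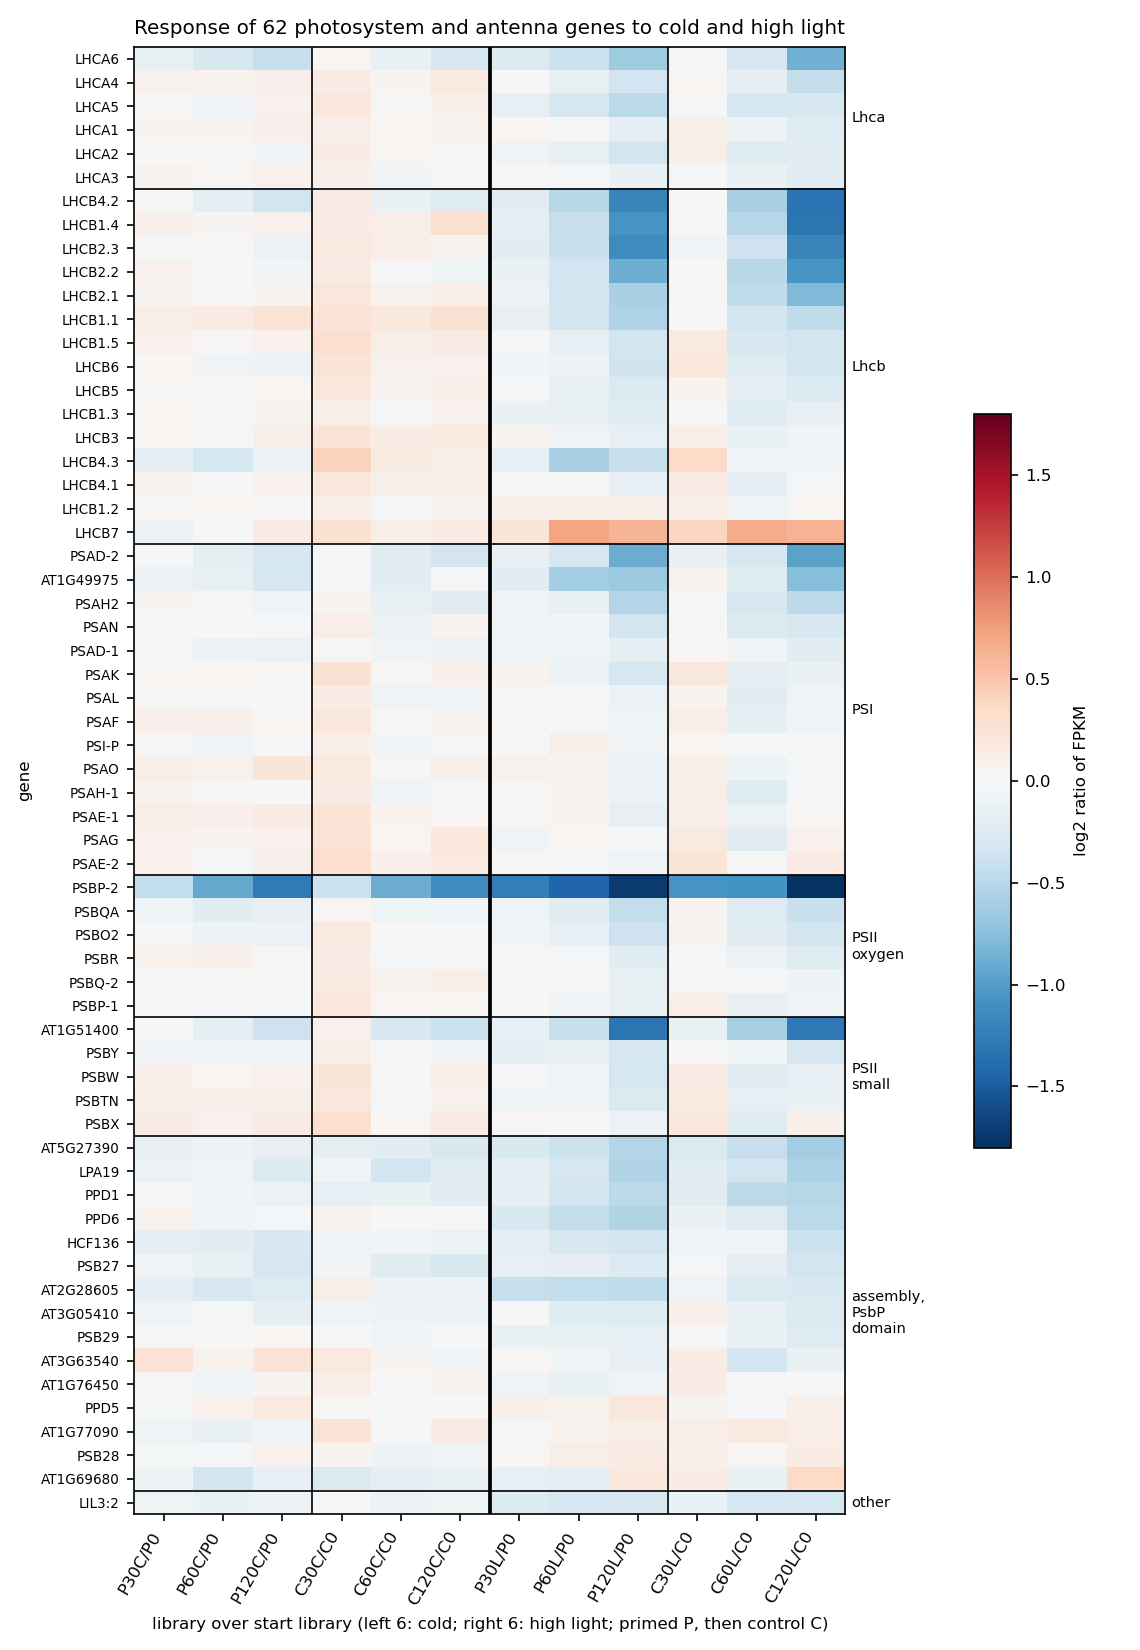
Log2 ratio of FPKM to the start library for the 62 members (rows, by class, sorted by C120L/C0) in cold (left 6 columns) and high light (right 6 columns), with primed plants left of control plants. The darkest blue cells are PSBP-2, down to -1.78, and the only cells past the limit upwards are those of LHCB7 at 60 and 120 min of high light, 0.61 to 0.70.

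By class, the Lhcb antenna had the lowest median after 120 min of high light in P120L/P0, -0.36, with 4 of 15 fallen and 1 risen, and, with -0.33, in C120L/C0, with 5 fallen and 1 risen. The 6 Lhca genes had medians of -0.33 in P and -0.26 in C, with LHCA6 fallen in each. The 14 photosystem I subunits stood at -0.13 and -0.07, with PSAD-2 and AT1G49975 fallen in each. Among the 6 measured oxygen-evolving subunits (medians -0.29 in P and -0.27 in C) only PSBP-2 passed the limit, and among the 5 small photosystem II subunits (-0.31 in P and -0.15 in C) only AT1G51400 did. The 15 assembly factors and PsbP-domain proteins had medians of -0.23 and -0.25, with none fallen in P and AT5G27390 in C. LIL3:2, the one measured member of the remaining class, was at -0.29 in P and -0.32 in C. These counts by class are without scaling between libraries. Under scaling by reference genes further members passed the limit in primed plants, among them LHCA5, LHCB6, PSBO2 and PSBQA.

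Within the CP29 family only LHCB4.2 (chromosome 3, 2717557 to 2718923) fell. It was at 1965, 1709, 1379 and 863 FPKM after 0, 30, 60 and 120 min of high light in primed plants, and at 1706, 1692, 1124 and 680 FPKM in control plants. The corresponding cold values were 1974, 1734 and 1543 FPKM in primed plants and 1895, 1574 and 1456 FPKM in control plants. Both 120 min high-light libraries lay below all others, at log2 ratios of -1.19 in P120L/P0 and -1.33 in C120L/C0. Its sister LHCB4.1 (chromosome 5, 208866 to 210548), whose coding sequence is 81.1% identical, was at 3028, 3009, 2946 and 2745 FPKM in primed plants and at 2722, 3023, 2431 and 2691 FPKM in control plants. LHCB4.2 made up 23.4% of the summed CP29 FPKM in P120L, against 38.6% in P0, and 19.8% in C120L, against 37.9% in C0. The third gene, LHCB4.3 (chromosome 2, 16745628 to 16747424), ranged over 63.4 to 95.3 FPKM. Its lowest value was in P60L, against 94.7 FPKM in P0, a ratio of -0.58 that narrowly missed the limit. LHCB4.2 was at -0.51 in P60L/P0. Under scaling by reference genes LHCB4.3 passed the limit in primed plants.

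The major antenna family Lhcb1 split in the same way. LHCB1.4 (chromosome 2, 14524607 to 14525918) was at 2293, 2042, 1722 and 1094 FPKM after 0, 30, 60 and 120 min of high light in primed plants, and at 2025, 2007, 1417 and 814 FPKM in control plants. It did not go below its start in the cold, with 2432, 2367 and 2420 FPKM in primed plants and 2250, 2195 and 2472 FPKM in control plants. The 120 min ratios were -1.07 in P120L/P0 and -1.31 in C120L/C0. By contrast, LHCB1.2 (chromosome 1, 10472280 to 10473502) was at 3906, 4155, 4167 and 4164 FPKM in primed plants and at 3758, 4070, 3567 and 3834 FPKM in control plants, and no library of it departed from its start by the limit. LHCB1.3 changed by -0.22 and -0.15, LHCB1.5 by -0.34 and -0.33, and LHCB1.1 (chromosome 1, 10474656 to 10475969) by -0.55 and -0.46 in P120L/P0 and C120L/C0. LHCB1.1 passed the limit in primed plants, though not in control plants, under median-ratio scaling and under scaling by reference genes. LHCB1.4 is 86.8% to 91.4% identical with the other 4 genes in its coding sequence. Windows of 100 bases shared by transcripts of Lhcb1 genes made up less than 5% of each transcript, and how far the authors' counting divided reads among them is unknown.

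Summed over the 5 genes, Lhcb1 was at 34602 FPKM in P120L and 42331 FPKM in P0, and at 33119 FPKM in C120L and 39386 FPKM in C0. The sum therefore changed by -0.29 in primed and -0.25 in control plants on the log2 scale. LHCB1.4 made up 3.16% of it in P120L, against 5.42% in P0, and 2.46% in C120L, against 5.14% in C0. LHCB1.3 made up 50.9% in P120L, against 48.5% in P0, and 53.8% in C120L, against 50.1% in C0.

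The other trimer family, Lhcb2, moved more as a whole, and its genes were singled out after their values had been seen. LHCB2.2 (chromosome 2, 1799234 to 1800472) was at 4572, 4190, 3593 and 2493 FPKM after 0, 30, 60 and 120 min of high light in primed plants, and at 4206, 4195, 2971 and 2016 FPKM in control plants. LHCB2.3 (chromosome 3, 10255906 to 10257489) was at 2059, 1812, 1562 and 940 FPKM in primed plants, and at 1820, 1755, 1404 and 791 FPKM in control plants. Both thus decreased at each step after 30 min in both groups. The third gene, LHCB2.1 (chromosome 2, 1822990 to 1824480), was at 3897, 3609, 3067 and 2604 FPKM in primed plants, and at 3474, 3513, 2538 and 2008 FPKM in control plants, which passed the limit in control plants (-0.79) and narrowly missed it in primed plants (-0.58). The Lhcb2 sum was 6038 FPKM in P120L, against 10528 FPKM in P0, and 4815 FPKM in C120L, against 9499 FPKM in C0 (log2 ratios of -0.80 and -0.98). LHCB2.1 and LHCB2.2 have 96.6% identical coding sequences and share 9.87% and 12.4% of their 100-base windows, so that reads may have been divided between them. A gene on the other strand overlaps 36.3% of the LHCB2.3 windows, and it reached at most 6.83 FPKM.

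**Figure D3:**
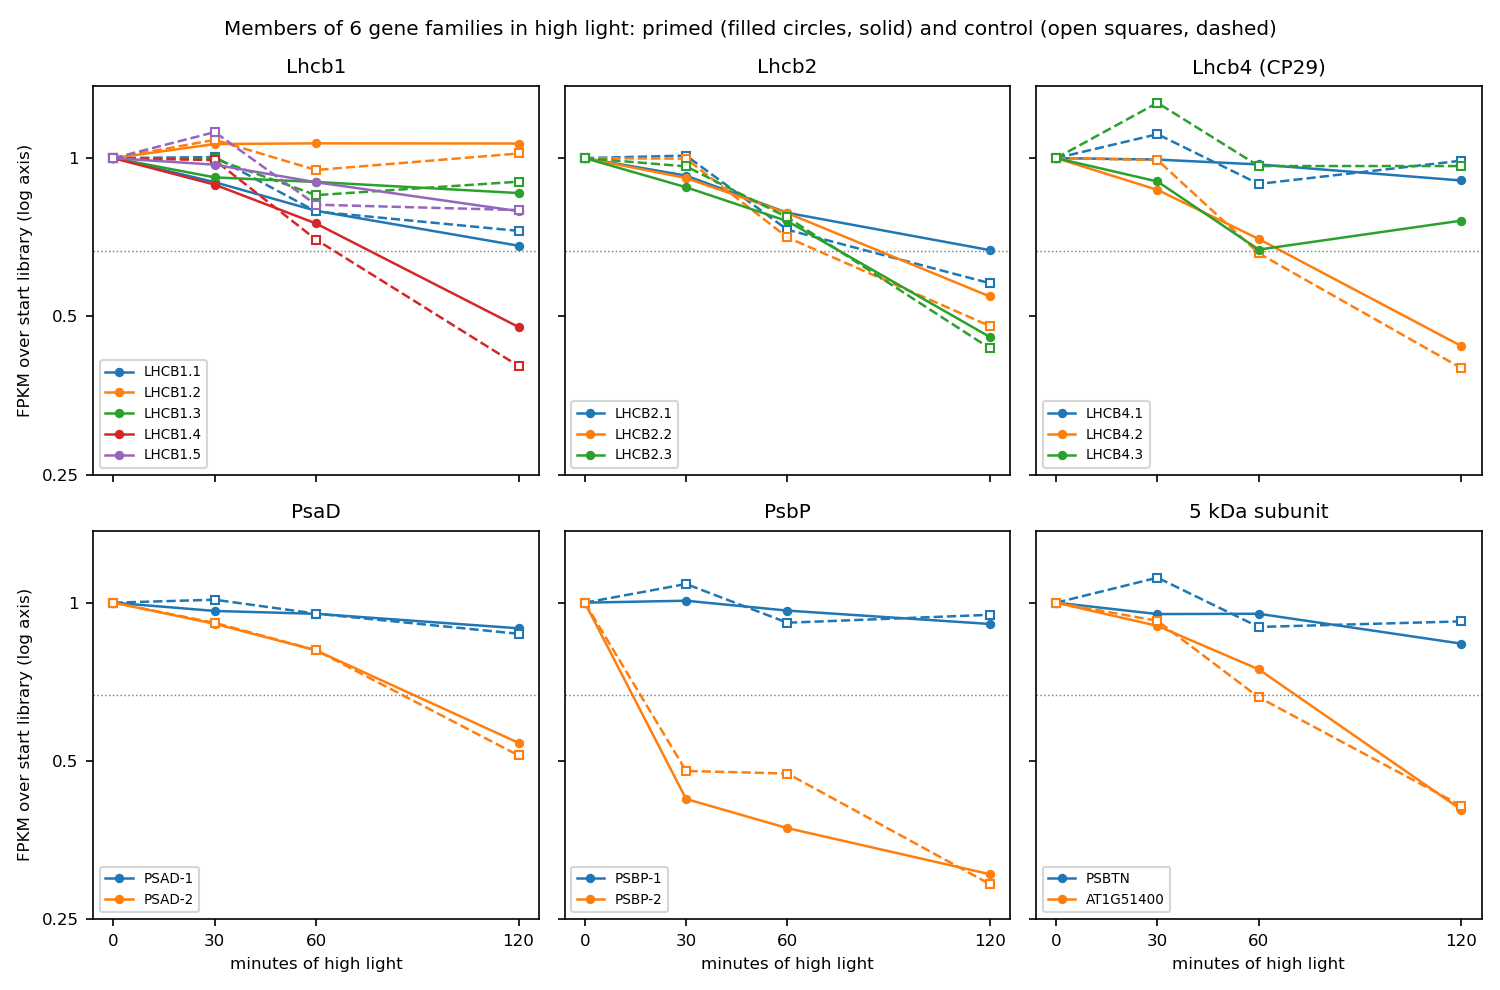
FPKM over the start library of the same group (log axis) against minutes of high light for 6 gene families, with primed plants as filled circles and control plants as open squares; the dotted line marks 1.5-fold lower. In 5 of the families sister genes part company by 120 min, as with LHCB4.2 at 863 and 680 FPKM against LHCB4.1 at 2745 and 2691 FPKM, whereas all 3 Lhcb2 genes decreased.

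LHCB3, the remaining trimer gene, and LHCB5 and LHCB6, which encode CP26 and CP24, did not pass the limit at any time without scaling between libraries. In P120L/P0 they changed by -0.15, -0.27 and -0.36, and in C120L/C0 by -0.05, -0.26 and -0.33. Under scaling by reference genes LHCB6 passed the limit in primed plants.

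LHCB7 (chromosome 1, 28728998 to 28730851), a rarely expressed homologue of the photosystem II antenna, was the one member that rose. It was at 18.1, 21.1, 29.4 and 27.5 FPKM after 0, 30, 60 and 120 min of high light in primed plants, and at 18.1, 23.6, 28.7 and 27.9 FPKM in control plants. In the cold it stayed within 16.8 to 19.9 FPKM in primed plants and 19.5 to 21.9 FPKM in control plants. The 60 and 120 min high-light libraries of both groups were above every other library. The ratios were 0.70 and 0.61 in primed and 0.66 and 0.62 in control plants, and none of these 4 passed the limit when libraries were scaled by 8 reference genes (0.37 to 0.58). The ratio of P120L/P0 also missed the limit with median-ratio scaling and with a pseudocount of 1 FPKM. None of the 4 passed a 2-fold limit.

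On the photosystem I side, PSAD-2 (chromosome 1, 753307 to 754262) encodes a copy of the ferredoxin-docking subunit. It was at 1723, 1571, 1398 and 932 FPKM after 0, 30, 60 and 120 min of high light in primed plants, and at 1703, 1559, 1383 and 872 FPKM in control plants. The other copy, PSAD-1 (chromosome 4, 1229031 to 1230164), with 86.3% identity in the coding sequence, was at 2673, 2578, 2546 and 2389 FPKM in primed plants and at 2540, 2573, 2421 and 2216 FPKM in control plants. PSAD-2 thus went to the lowest values of its course at 120 min in both groups (-0.89 and -0.97), and its share of the PsaD sum was 28.1% in P120L, against 39.2% in P0, and 28.2% in C120L, against 40.1% in C0. In the cold PSAD-2 reached 1387 FPKM in P120C and 1353 FPKM in C120C, ratios of -0.31 and -0.33 that did not pass the limit.

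The duplicated genes of the other stromal and docking subunits stayed within the limit, except PSAH2 under scaling by reference genes, with -0.76 in P120L/P0 and -0.59 in C120L/C0. PSAE-1 and PSAE-2 changed by -0.15 and -0.06 in P120L/P0 and by 0.04 and 0.14 in C120L/C0. PSAH2 and PSAH-1, which belong to the site where the mobile antenna docks, changed by -0.52 and -0.11 in primed plants and by -0.47 and -0.01 in control plants, and PSAL and PSAO, of the same site, by at most 0.11 in either direction. The overlap of PSAG, PSAH-1 and PSAE-1 with genes on the other strand covered 55.8, 47.0 and 24.0% of their windows, and whether reads were counted by strand is not stated in the sources used here.

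LHCA6 (chromosome 1, 6612630 to 6613972), a minor antenna protein that attaches photosystem I to the NAD(P)H dehydrogenase complex, was at 163, 138, 124 and 105 FPKM after 0, 30, 60 and 120 min of high light in primed plants, and at 151, 150, 123 and 83.1 FPKM in control plants. In the cold it was at 149, 134 and 122 FPKM in primed plants and at 154, 139 and 122 FPKM in control plants, so that the 120 min values were the lowest under both triggers. LHCA2 (chromosome 3, 22745514 to 22747444), its closest relative in the antenna, with 59.4% identity in the coding sequence, was at 2977, 2837, 2715 and 2378 FPKM in primed plants and at 2662, 2876, 2298 and 2313 FPKM in control plants in high light. The ratios at 120 min were -0.64 and -0.86 for LHCA6 and -0.32 and -0.20 for LHCA2, in primed and in control plants. LHCA4 lay at -0.34 and -0.43, and LHCA5, the other minor antenna gene, at -0.48 and -0.29.

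AT1G49975 (chromosome 1, 18504757 to 18506184), which the table names as a photosystem I subunit N, is weakly expressed. In high light it was at 32.8, 28.8, 21.2 and 20.9 FPKM after 0, 30, 60 and 120 min in primed plants, and at 30.5, 31.9, 26.3 and 18.0 FPKM in control plants. Primed plants had thus passed the limit at 60 min (-0.63) and control plants had not (-0.22), and the difference between the groups was not tested. By 120 min both had passed it (-0.65 and -0.76).

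Of the small photosystem II subunits, AT1G51400 (chromosome 1, 19052023 to 19052582), a gene for a 5 kDa protein, was at 1391, 1256, 1039 and 562 FPKM after 0, 30, 60 and 120 min of high light in primed plants, and at 1241, 1146, 820 and 510 FPKM in control plants. In the cold it was at 1391, 1243 and 1078 FPKM in primed plants and at 1309, 1026 and 953 FPKM in control plants. The high-light ratios at 120 min were -1.31 and -1.28, and the ratios in the cold, -0.37 and -0.38, stayed within the limit. PSBTN (chromosome 3, 7376432 to 7377226), the related gene with 74.1% identity, was added after its values had been seen. It was at 3752, 3569, 3574 and 3136 FPKM in primed plants and at 3352, 3740, 3014 and 3088 FPKM in control plants. AT1G51400 made up 15.2% of the sum of both in P120L, against 27.0% in P0, and 14.2% in C120L, against 27.0% in C0. The gene that overlaps 45.3% of its windows on the other strand reached at most 0.14 FPKM.

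Among the assembly factors and PsbP-domain proteins, changes without scaling between libraries were mostly small and members were mostly of low level. AT5G27390 (chromosome 5, 9674320 to 9676219) fell to 18.5 FPKM in C120L, against 28.6 FPKM in C0 (-0.63), and was at 18.0 FPKM in P120L, against 25.8 FPKM in P0 (-0.52). Under median-ratio scaling C120L/C0 was -0.56 and did not pass the limit, which leaves 10 members fallen in C120L/C0. In P120L/P0 that scaling instead gave 13 fallen members, with LPA19 and PPD6 of this class among them. Without scaling, AT5G27390 was the last one inside the limit in C120L/C0, after AT1G49975 (-0.76) and LHCB2.1 (-0.79). Just outside it were LPA19 (-0.57), an assembly factor of photosystem II, PPD1 (-0.51), an assembly factor of photosystem I, and PPD6 (-0.48). HCF136, required for assembly of the photosystem II reaction centre, was at 209 FPKM in P120L, against 264 FPKM in P0, and at 200.4 FPKM in C120L, against 263 FPKM in C0. PSB28, which binds assembly intermediates of photosystem II, was at 288 FPKM in P120L, against 261 FPKM in P0, and at 304 FPKM in C120L, against 276 FPKM in C0. Without scaling between libraries, the limit was passed in this class once in 12 triggering comparisons of 15 genes. Under scaling by reference genes AT5G27390, LPA19, PPD1 and PPD6 fell in high light in both groups, and AT2G28605 in primed plants only.

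Members of every level were among those that fell. In C120L/C0, 3 of 14 members with a mean under 100 FPKM fell, 1 of 9 between 100 and 1000 FPKM, and 7 of 39 with at least 1000 FPKM, and in P120L/P0 the numbers were 2, 1 and 6. Median ratios of these bins were -0.43, -0.25 and -0.27 in primed and -0.26, -0.29 and -0.20 in control plants.

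The members that fell in high light mostly lay below their start in the cold too, within the limit. Of the 9 members that fell in P120L/P0, 8 lay below P0 in P120C, with a median of -0.31 over the 9. Of the 11 that fell in C120L/C0, 8 lay below C0 in C120C, with a median of -0.23 over the 11. PSBP-2 was the one member that passed the limit in the cold. When the high-light library was set against the cold library of the same time, which removes the time of day but adds the effect of cold, 7 members fell and none rose in P120L/P120C, where 11.7% of all genes fell and 14.1% rose. In C120L/C120C 11 members fell and none rose, where 14.3% of all genes fell and 14.2% rose. The lowest ratios of P120L/P120C were -1.15 in LHCB1.4, -1.02 in LHCB2.3, -0.94 in AT1G51400, -0.84 in LHCB4.2, -0.82 in LHCB2.2, -0.81 in LHCB1.1 and -0.63 in LHCB2.1. In C120L/C120C these genes stood at -1.60, -1.26, -0.90, -1.10, -0.99, -0.73 and -0.91, in the same order. All but AT1G51400 are antenna genes. The other 4 that fell in C120L/C120C were AT1G49975 (-0.74), PSBP-2 (-0.64), PSAD-2 (-0.63) and LHCA4 (-0.60).

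Primed and control plants resembled each other in which members responded. All 9 members that fell in P120L/P0 also fell in C120L/C0, which is 100% of the primed and 81.8% of the control list. Both lists come from separate libraries. Under median-ratio scaling 13 members fell in primed and 10 in control plants, and LHCB1.1, LPA19 and PPD6 fell in primed plants only. Scaling by reference genes gave 22 in primed against 15 in control plants. Across the 62 members the ratios of P120L/P0 and C120L/C0 were correlated with Pearson's r of 0.969 and Spearman's rho of 0.936, and those at 30 and 60 min of high light with r of 0.874 and 0.820 and rho of 0.677 at both times. In the cold r was 0.605, 0.741 and 0.891 and rho 0.577, 0.544 and 0.764 after 30, 60 and 120 min. These values are across genes, which are not independent replicates. Neither the overlap nor the correlations were computed over all genes, so the likeness is not read as particular to the members.

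**Figure D4:**
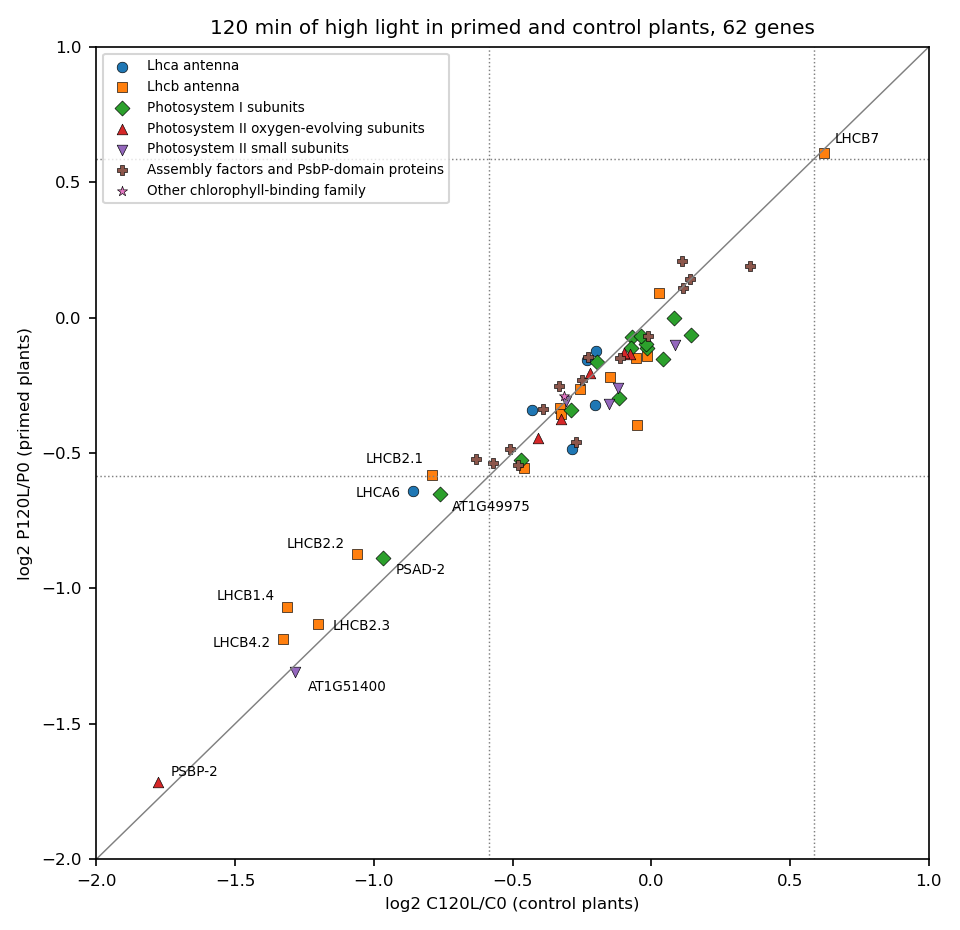
Log2 ratio at 120 min of high light in primed plants (y axis, P120L/P0) against control plants (x axis, C120L/C0) for the 62 members, with symbols by class, the line of equality and dotted lines at 1.5-fold. Points run from PSBP-2 at -1.72 and -1.78 to LHCB7 at 0.61 and 0.62, close to the line.

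No member differed by 1.5-fold between primed and control plants in any of the 7 comparisons, before or after triggering. For P0/C0, 3.11% of all genes passed the limit in either direction. In the cold the percentages were 4.19, 4.83 and 2.17% of all genes for P30C/C30C, P60C/C60C and P120C/C120C, and in high light 3.46, 6.21 and 6.39% for P30L/C30L, P60L/C60L and P120L/C120L. All genes enter from a mean of 2 FPKM, whereas 39 of the 62 members averaged at least 1000 FPKM. The SD of P0/C0 across genes was 0.097 for members and 0.233 for all genes. As all genes were not matched to the members in level, the absence of calls is not read as particular to the members. The median over the members was 0.09 in P0/C0, with 53 of 62 above 0, whereas 35.0% of all genes were above 0 and their median was -0.05. In the cold the medians were -0.01, 0.07 and 0.06 for the members and 0.06, 0.03 and 0.00 for all genes. In high light they were -0.02, 0.14 and 0.05 for the members and -0.01, -0.05 and 0.08 for all genes. The values furthest from 0 were 0.43 for PSAG in P60L/C60L, 0.43 for LHCB1.4 in P120L/C120L, 0.41 for PSBX, a small photosystem II subunit, in P60L/C60L and 0.39 for LHCB4.3 in P0/C0, and on the other side -0.39 for LHCB7 in P30C/C30C and -0.31 for AT1G49975 in P60L/C60L.

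PSAG, a photosystem I subunit that binds antenna proteins, was at 3673, 3529, 3759 and 3666 FPKM after 0, 30, 60 and 120 min of high light in primed plants, and at 3195, 3590, 2786 and 3386 FPKM in control plants. The lowest of its values in the 14 libraries was that of C60L. In 23 of 62 members (37.1%) C60L was below both C30L and C120L, as it was in 26.4% of all genes, and for primed plants the numbers were 5 of 62 (8.06%) and 34.9%. C60L had the smallest FPKM sum of the 14 libraries, 700526. Whether the P60L/C60L values rest on this library was not tested.

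For the members that fell in high light, primed plants had the higher level in 10 of the 11 at 120 min, and in 10 of the 11 before triggering. Over all 62 members the numbers were 44 in P120L/C120L and 53 in P0/C0, where 64.6% and 35.0% of all genes lay above 0. These 11 were chosen in part for a low C120L value, so that the count at 120 min is not independent of the choice. Counted from each group's own start, primed minus control was between -0.02 and 0.25 on the log2 scale for the 11 genes, the highest being LHCB1.4. The C120L/C0 ratios subtracted here also served for the choice of the 11. This range is therefore not independent of the choice either, and no weaker fall in primed plants is read from it.

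**Figure D5:**
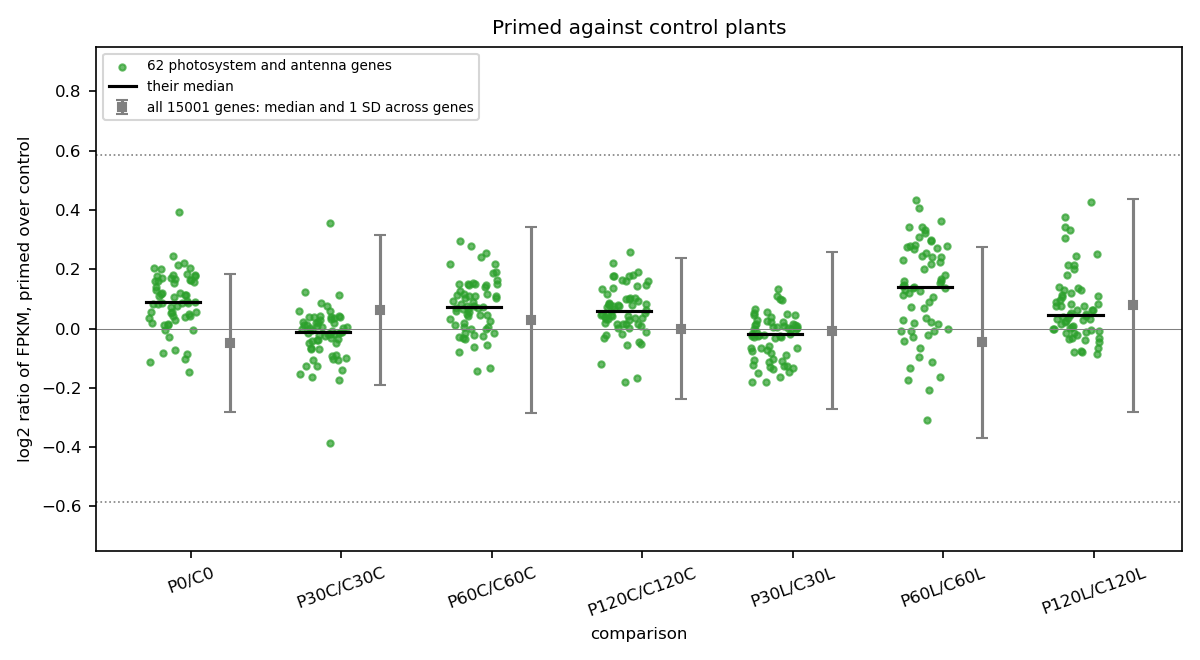
Log2 ratio of FPKM, primed over control, for the 62 members (green points, black bar at their median) and all 15001 genes (grey square, median with 1 SD across genes) in 7 comparisons (x axis). All points lie between the dotted 1.5-fold lines, within -0.39 to 0.43.

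Other genes of photosynthesis were followed as lists. Of 14 genes for nuclear-encoded electron transport and ATP synthase subunits, 1 fell and none rose in P120L/P0 and in C120L/C0, with medians of -0.18 and -0.16. It was PETE1, the minor plastocyanin gene, with 149 FPKM in P120L, against 298 FPKM in P0, and 157 FPKM in C120L, against 277 FPKM in C0. The major plastocyanin gene PETE2 changed by -0.29 and -0.22. Of 5 Rubisco genes, the small subunit genes stayed within the limit and RCA, which encodes Rubisco activase, fell in both groups (-0.67 in P and -0.70 in C).

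Of 5 genes for the insertion of antenna proteins into the thylakoid, CPSRP43, the subunit of the chloroplast signal recognition particle that binds Lhc proteins, fell in both groups (-1.14 in P and -0.98 in C), and the other 4 changed by -0.45 to -0.08 and by -0.44 to -0.10. The 4 kinases and phosphatases of photosystem phosphorylation did not pass the limit at 120 min of high light, the lowest being STN8, the kinase of the photosystem II core, with -0.50 and -0.58. GLK2, one of a pair of transcription factors that activate antenna genes, fell at each of the 3 times of high light, with -1.04, -1.08 and -0.64 in primed and -0.88, -0.87 and -0.71 in control plants, whereas GLK1 changed by -0.24, -0.22 and -0.29 and by -0.22, -0.28 and -0.34. In the cold GLK1 was at -0.65 in P120C/P0, past the limit, and at -0.56 in C120C/C0, and GLK2 at 0.00 and 0.03. A link between these factors and the members was not tested. Among the 6 genes left out by name, ELIP2 fell after 120 min of high light (-0.60 in P and -0.82 in C), and PSBS changed by 0.08 and 0.05. None of the 8 reference genes passed the limit, and their medians after 120 min of high light were 0.26 and 0.09.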

How the data were processed

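Each library was poly(A)-selected mRNA from pooled Col-0 rosettes, sequenced as paired ends. The authors removed low-quality reads, aligned the rest to TAIR10 with Bowtie2 and estimated FPKM with RSEM. The submitters' processing notes also name HISAT2 2.1.0. The deposited FPKM values are per library, carry 2 decimals and were not scaled between libraries, and read counts were not used here. All 14 columns were matched to samples by title.

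Ratios were formed without a pseudocount, with a limit of 1.5-fold and a filter of 0.5 FPKM in C0 and P0 and a mean of 2 FPKM. The calling step was run on simulated data with 2-fold changes and small noise set by hand. This checks the code only and says nothing on the error of the real ratios. Python 3.11.15, NumPy 2.4.6, pandas 2.3.3, SciPy 1.17.1, matplotlib 3.10.9 and Biopython 1.88 were used. Relative depth was read from the spacing of low values with a tolerance of 2%. All 64 members matched the RefSeq annotation of TAIR10.1, which gave positions and sequences.

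The members and gene lists were chosen with earlier results of these data known. Library values were to be given for the 3 members with the highest mean, for paralogues that differed in call, for members past the limit at 2 or more of 3 times, and for members past it between primed and control plants, of which there were none. Every other member described was chosen after its values had been seen. Alternatives were limits of 2-fold and 1.25-fold, a pseudocount of 1 FPKM, no filter, and scaling by 8 reference genes or by median ratio.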

Additional observations from a re-analysis of the deposited data

Results flagged for a closer look

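LHCB1.4 lay above the start library of its group in all 6 cold libraries and below it in all 6 high-light libraries. The median log2 ratio was 0.10 over the 6 cold libraries and -0.46 over the 6 high-light libraries. The difference between the triggers was not tested, because each condition has 1 library. None of the cold values passed 1.5-fold, so that the opposite directions rest on cold ratios of at most 0.29, in C120C/C0.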

How the results depend on the processing

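No paired analysis was possible because each condition has 1 library and no replicate numbers are shared. Members past the limit at 1 or more times were 1 higher and 9 lower in primed and 1 higher and 11 lower in control plants in high light, and 0 higher and 1 lower in each in the cold. With a 2-fold limit, the high-light counts were 0 higher and 5 lower in primed and 0 higher and 6 lower in control plants. With the looser of the other limits they were 27 lower in primed plants, and 3 higher and 24 lower in control plants. In the cold this limit gave 5 lower in primed plants, and 1 higher and 4 lower in control plants. Between primed and control plants it gave 1 higher before triggering, 1 higher and 1 lower in the cold and 11 higher in high light. Without the filter, 2 members were lower in the cold in each group, 1 was lower in primed than control plants before triggering, 1 was higher and 1 lower in the cold, and 1 was lower in high light. For the other limits, and without the filter, the shares of all genes were not computed. No difference in frequency from all genes is read from these counts. Scaling by reference genes gave 0 higher in high light in both groups, and 22 lower in primed against 15 lower in control plants. The median of P120L/P0 was then -0.51. This scaling shifted member medians by -0.23 to 0.09, and 4 of 25 medians changed sign. With median-ratio scaling the shifts were -0.09 to 0.12 and 3 of 25 changed sign. In high light it gave 1 higher and 13 lower in primed plants, and 1 higher and 10 lower in control plants. Of 35 calls of single members, 31 were kept under each scaling, 34 with the pseudocount and 17 with the 2-fold limit, and none reversed. In alternatives chosen after seeing the data, leaving out 120 min gave 2 lower in primed and 3 lower in control plants in high light, and the cold library of the same time as baseline gave 0 higher in control plants. The cause of these differences was not tested, beyond the limits being looser or stricter by construction. Low members such as PSBP-2 rest on few reads, and their precision is unknown without counts.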
